A study of Mus musculus with 8 samples.

Results

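The genes described here are 49 members of the Wnt pathway: 12 Wnt ligand genes, 2 genes of ligand secretion, 10 Frizzled receptor genes, 5 coreceptor genes, 4 R-spondin genes, 5 genes of R-spondin receptors and their ligases, 3 genes of β-catenin and its destruction complex, 4 TCF/LEF factor genes, and 4 feedback or target genes. They were taken by gene symbol from the table of all genes, in which each symbol stood once, 49 of 43346 entries. Secreted antagonists were not members. RNA came from mouse skin wounds of the genotype Sm22-Cre;tdTomato on a mixed background, carried by all animals, at 12, 15, 21 and 26 days post wounding. Wound tissue was broken up with collagenase, viable tdTomato-high cells were sorted, and their RNA was sequenced by SMART-seq2, a method for small RNA amounts that reads whole transcripts, in 2 libraries for each day and 8 in all. Sm22-Cre acts in cells in which the Sm22 (Tagln) promoter has been active, a promoter of smooth muscle and other contractile cells, and the red label stays on afterwards, so sorted cells need not express Tagln at the time of the sort. The sources used here give neither age nor sex of the animals, nor whether same-day libraries stem from different animals. The p-values therefore rest on library-to-library spread, which may be technical.

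Wnt proteins are lipid-modified by the acyltransferase Porcn and carried out of the cell by Wls. They bind Frizzled receptors together with Lrp5 or Lrp6, which stabilizes β-catenin (Ctnnb1) and lets TCF/LEF factors switch on target genes such as Axin2, Nkd1 and Sp5, or together with Ror1, Ror2 or Ryk, which signal without β-catenin. R-spondins strengthen the signal: they bind Lgr4, Lgr5 or Lgr6 and remove Znrf3 and Rnf43, ligases that clear Frizzleds from the surface. In skin the β-catenin branch is known for its part in hair follicle formation, and in preadipocyte cultures for holding back fat cell differentiation.

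Levels are given in TPM (a level scaled by transcript length and to a fixed sum per library), which keep no record of depth, so no counting interval could be given. Library numbers are those of the value columns. Log2 changes are on the log2(TPM + 1) scale, which understates the change of low genes, and come with their SE and adjusted p from limma with Benjamini-Hochberg adjustment over 15062 tested genes. A gene passed at an adjusted p under 0.05, and "rose" and "fell" are used of such genes. Of the 49 members, 43 reached 1 TPM in at least 2 libraries and were tested. The others, Wnt3, Wnt10b, Fzd5, Fzd10, Rspo2 and Rnf43, lay between 0 and 1.25 TPM in all libraries. In bulk RNA, fewer cells of a type and less RNA per cell cannot be told apart.

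Markers of several cell types were present in the sorted cells. The 11 fibroblast markers summed to between 43360 and 110000 TPM per library, and Acta2 (smooth muscle actin) and Tagln were present in every library, at 291.54 TPM or more and at 64.95 TPM or more. Between day 26 and day 12, 6 of the 11 fibroblast markers rose and 2 fell, and Acta2 fell (log2 change -1.57, adjusted p = 0.0156, limma). The 15 keratinocyte markers summed to 8.99 and 10.69 TPM at day 12, 47.9 and 112.8 TPM at day 15, 137.4 and 180.1 TPM at day 21, and 437.3 and 798.2 TPM at day 26. All 13 of them that could be tested rose between day 12 and day 26, and the epithelial desmosome genes Dsp and Dsg3 were listed at 0 in both libraries of day 12. The 14 macrophage and leukocyte markers in the table summed to between 4405 and 6484 TPM on day 12 and between 1424 and 2975 TPM later, and 11 of the 14 fell from day 12 to day 26. Summed levels ran from 144.1 to 263.6 TPM for 11 endothelial markers, 423.2 to 2200 TPM for 10 pericyte and smooth muscle markers, 161.6 to 839.1 TPM for 12 Schwann cell and melanocyte markers, and 1494 to 2844 TPM for 12 dermal papilla markers, a list that holds Rspo3. Crabp1, at 1291.29 to 2694.01 TPM, made up most of the dermal papilla sum. Of the 11 tested dermal papilla markers 3 rose between day 26 and day 12 and 1 fell, and Wif1 was among those that rose, with 44.54 and 48.69 TPM on day 26 against 0.25 and 0.68 TPM on day 12. Library 1 of day 15 had the highest sums of Schwann cell and melanocyte markers and of pericyte and smooth muscle markers. Xist, made from the silenced X of female cells, was at most 0.01 TPM on days 12 and 26, 30.71 and 5.54 TPM on day 15, and 4.78 and 27.53 TPM on day 21, so that sex and day cannot be told apart in steps between these pairs of days. The part of other cell types in the changes below was not tested.

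Between day 26 and day 12, R-spondin genes, their receptor gene Lgr5 and feedback genes were among the members that rose. Rspo1, Rspo4 and Lgr5 rose together with the feedback genes Nkd1 and Nkd2 and the target gene Sp5, the ligand genes Wnt5b and Wnt16 rose, and the receptor gene Fzd1 rose. Wnt2b, a ligand of the β-catenin branch, was the member that fell. In all, 9 of 43 tested members rose and 1 fell, and 33 did not pass. Over all tested genes 17.0% passed, 5.26% higher and 11.8% lower (1162 higher and 1215 lower after quantile normalization, 792 and 1770 as deposited), so the members held a larger share of risers and a smaller share of fallers than the table. In either direction, 14 of 43 members had an unadjusted p under 0.05 in limma, against 31.9% of all tested genes, a similar share. The median log2 change of the tested members was 0.31 against -0.20 for all tested genes, which puts the members 0.51 above the whole. The day 26 libraries lay both above the day 12 libraries for 20 of the 43 members, against 17.9% of all tested genes, and both below for 4, against 43.5%. The members were chosen with earlier results of these data known, so these shares describe the set and do not test it. Xist was at or near 0 on both days. The plot of changes by role shows all 43 tested members.

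**Figure D1:**
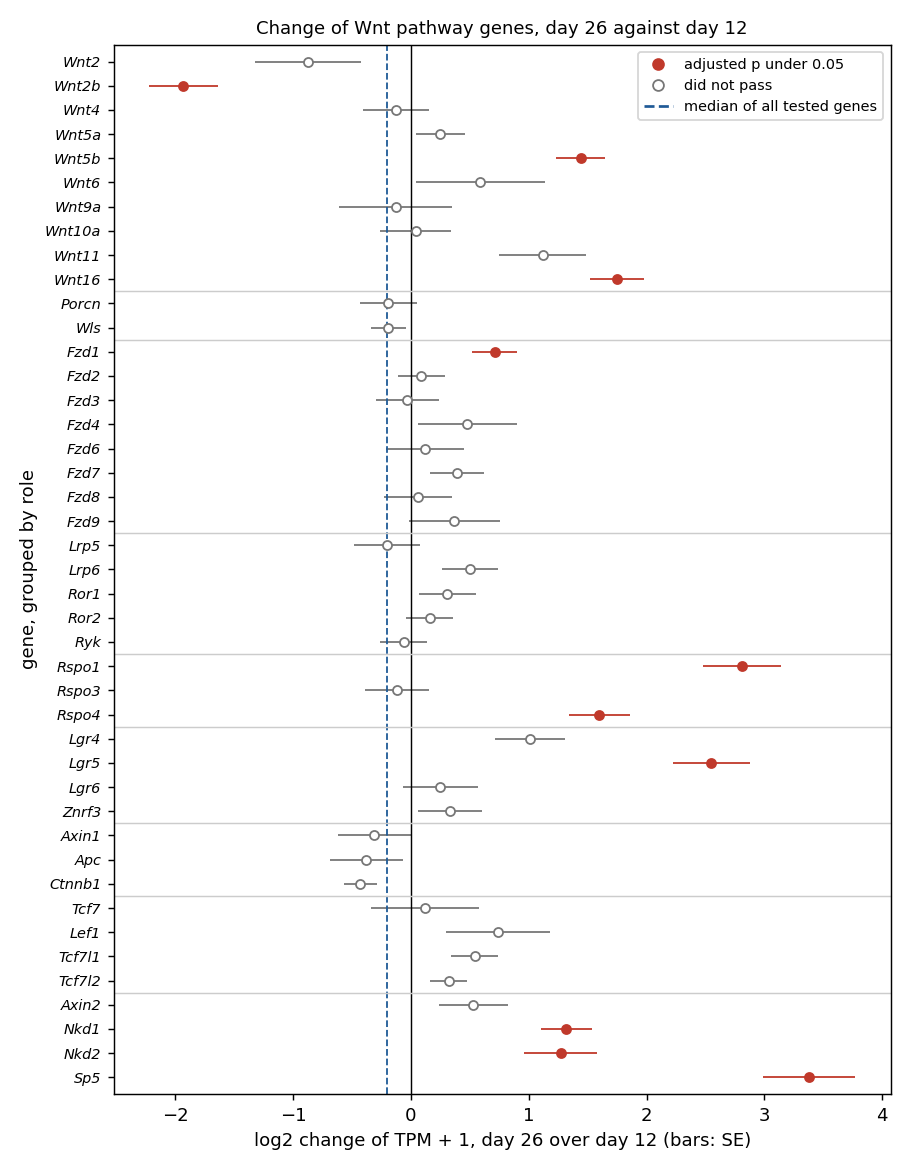
Log2 change of TPM + 1 between day 26 and day 12 (x axis, day 26 over day 12, bars show the SE from limma) for the 43 tested Wnt pathway genes (rows, grouped by role and split by grey lines). Filled red points passed at an adjusted p under 0.05 and open grey points did not; the dashed line is the median of all tested genes at -0.20, and Sp5 at 3.38, Rspo1 at 2.81 and Lgr5 at 2.55 stand farthest to the right.

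Promoters of the members were searched for letters of the TCF/LEF binding motif. The RefSeq promoter table (GRCm38.p6, the same coordinates as the mm10 build named in the submitters' processing notes) holds windows of 300 bases, 250 before and 50 after a gene start, for 34 of the 49 members, in 44 windows. No window was used for Apc, Axin1, Fzd2, Fzd3, Fzd6, Fzd8, Lgr5, Lrp5, Lrp6, Porcn, Rspo2, Rspo3, Wnt10a, Wnt5a and Znrf3. The motif CTTTGAT was looked for on both strands, and so was the related CTTTGTT; no base was shared between matches to the 2 motifs. CTTTGAT stood in 3 of the 44 windows, 6.82%, against 3.73% of all 32851 windows, and CTTTGTT in 4 of the 44, 9.09%, against 5.85%. Either motif stood in 6 of the 44 windows, 13.6%, against 9.33% of all windows. By gene this was 6 of 34 members, 17.6%, against 10.6% of all genes, and genes with several windows have more chances of a match. Among the 11 members that passed in any comparison, Sp5, Wnt5b and Tcf7l2 held a match and Lgr5 had no window. The Nkd1 window, chr8:88527383-88527682, lay inside the gene, past its annotated start at 88521354, which was not searched. The Fzd1 window, chr5:4758167-4758466, lay outside the annotated gene and did not cover its start at 4758035 on the minus strand. Fzd7, Wnt11 and Wnt3, which did not pass or were not tested, held a match too, and of all member windows that of Sp5 alone held both motifs. The Sp5, Wnt5b and Tcf7l2 windows with a match are shown because their genes moved, with the Rspo1 window beside them as that of the R-spondin gene that rose most and holds neither motif. Matches are in capitals, in either orientation.
Sp5 promoter, chr2:70474673-70474972, plus strand, GRCm38.p6: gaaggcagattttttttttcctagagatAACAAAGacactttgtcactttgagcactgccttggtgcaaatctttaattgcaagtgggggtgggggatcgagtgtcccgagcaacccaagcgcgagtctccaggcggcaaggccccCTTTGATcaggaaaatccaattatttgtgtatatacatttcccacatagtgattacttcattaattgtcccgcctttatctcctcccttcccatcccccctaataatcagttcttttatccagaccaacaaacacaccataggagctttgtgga
Wnt5b promoter, chr6:119449337-119449636, minus strand, GRCm38.p6: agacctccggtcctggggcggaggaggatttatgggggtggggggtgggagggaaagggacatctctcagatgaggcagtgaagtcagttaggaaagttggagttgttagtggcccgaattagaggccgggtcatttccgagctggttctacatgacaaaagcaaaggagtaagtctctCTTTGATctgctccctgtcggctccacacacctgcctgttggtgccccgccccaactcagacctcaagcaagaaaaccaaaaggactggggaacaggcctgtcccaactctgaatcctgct
Tcf7l2 promoter, chr19:55895071-55895370, plus strand, GRCm38.p6: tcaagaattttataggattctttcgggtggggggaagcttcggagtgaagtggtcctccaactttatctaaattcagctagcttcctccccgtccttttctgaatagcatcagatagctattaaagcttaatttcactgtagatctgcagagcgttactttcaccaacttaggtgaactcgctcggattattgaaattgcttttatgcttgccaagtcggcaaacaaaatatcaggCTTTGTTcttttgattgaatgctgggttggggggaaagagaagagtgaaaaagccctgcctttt
Rspo1 promoter, chr4:124986180-124986479, plus strand, GRCm38.p6: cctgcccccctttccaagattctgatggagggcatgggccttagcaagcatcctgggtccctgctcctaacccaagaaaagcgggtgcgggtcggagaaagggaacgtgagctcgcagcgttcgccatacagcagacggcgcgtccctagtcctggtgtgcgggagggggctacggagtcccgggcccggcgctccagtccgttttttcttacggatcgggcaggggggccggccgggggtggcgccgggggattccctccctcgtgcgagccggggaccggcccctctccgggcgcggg
In the Sp5 window AACAAAG, the reverse complement of CTTTGTT, began at position -222 from the gene start, and CTTTGAT at -104. The Wnt5b window belongs to the innermost of 3 annotated starts of that gene, and its CTTTGAT began at -71. The windows of the other Wnt5b starts, the outermost among them, held no match. The CTTTGTT of Tcf7l2 began at -14 from an internal start, and the window of the outermost start held no match. A match of letters is a description and was not tested as a binding site.

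Among the ligand genes, Wnt5a, which encodes a ligand known mainly for signalling without β-catenin, was the most abundant. It stood at 65.43 and 73.33 TPM at day 12, 97.05 and 71.58 TPM at day 15, 94.61 and 80.74 TPM at day 21, and 98.08 and 69.95 TPM at day 26. Days 26 and 12 overlapped, both libraries of day 21 lay above those of day 12, and Wnt5a did not pass between day 26 and day 12 (adjusted p = 0.438, limma). It held between 50.3% and 52.9% of the summed TPM of the 12 ligand genes on each day. Its exons overlap an antisense gene, Gm2670, and the counting is not stated to use strand. Exons of Wnt11, Fzd5, Fzd6, Rspo3, Lef1, Tcf7l1 and Axin2 also overlap a gene on the other strand, so the same limit holds for their values.

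Wnt5b (ENSMUSG00000030170.10, chromosome 6, 119432531 to 119544347, GENCODE vM21 on GRCm38, the source of all gene positions here), the closest relative of Wnt5a, rose. It had 5.15 and 6.78 TPM at day 12, 7.74 and 8.39 TPM at day 15, 10.7 and 12.47 TPM at day 21, and 18.46 and 17.03 TPM at day 26. Each day lay above the one before without overlap. The log2 change between day 26 and day 12 was 1.44 (SE 0.21, adjusted p = 0.00322, limma), and no single step between neighbouring days passed.

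Wnt16 (ENSMUSG00000029671.11, chromosome 6, 22288227 to 22298522) encodes a ligand known from bone and skin. Its values were 1.95 and 1.98 TPM at day 12, 2.72 and 2.43 TPM at day 15, 10.67 and 9.36 TPM at day 21, and 8.32 and 9.7 TPM at day 26. The libraries fell into a low pair of days and a high pair, with no overlap between them. Wnt16 rose between day 21 and day 15 (log2 change 1.62, SE 0.23, adjusted p = 0.0232, limma) and between day 26 and day 12 (log2 change 1.75, SE 0.23, adjusted p = 0.00202, limma). The step from day 15 to day 21 lost its call when any 1 library of days 12, 15 or 21 was left out (log2 change between 1.54 and 1.71, adjusted p between 0.0514 and 0.152) and without the libraries with the most Xist (log2 change 1.77, adjusted p = 0.266), so the size of the step stayed near 1.62 in these fits.

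Wnt2b (ENSMUSG00000027840.4, chromosome 3, 104945272 to 104961921) moved the other way. It had 3.92 and 4.5 TPM at day 12, 1.18 and 1.82 TPM at day 15, 0.68 and 0.55 TPM at day 21, and 0.28 and 0.45 TPM at day 26. Every later library was below both libraries of day 12. Its log2 change between day 26 and day 12 was -1.93 (SE 0.29, adjusted p = 0.00315, limma); the mean was 0.365 TPM on day 26 and 4.21 TPM on day 12. Of the 14 macrophage and leukocyte markers given above, 11 also fell between these days. The part of these cells in the Wnt2b change was not tested.

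Wnt9a and Wnt10a, 2 further ligands, were the next most abundant after Wnt5a over all libraries. Wnt9a had 18.83 and 24.29 TPM at day 12, 28.4 and 34.19 TPM at day 15, 42.92 and 30.9 TPM at day 21, and 37.08 and 9.98 TPM at day 26. The libraries of day 26 were far apart, the second being the lowest of all 8. Wnt9a did not pass in any comparison, with an adjusted p of 0.88 between day 26 and day 12 (limma). Without library 1 of day 26 it was called lower on day 26 than on day 12, and lower than on day 21. Wnt10a had 13.33 and 20.88 TPM at day 12, 14.25 and 19.38 TPM at day 15, 9.54 and 15.46 TPM at day 21, and 19.55 and 15.15 TPM at day 26, with overlapping days (adjusted p = 0.944 between day 26 and day 12, limma).

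The other tested ligand genes, Wnt2, Wnt4, Wnt6 and Wnt11, did not pass. Wnt6, the neighbour of Wnt10a on chromosome 1, ranged from 2.36 TPM in library 2 of day 12 to 22.54 TPM in library 1 of day 15. Wnt11 had 3.84 and 6.36 TPM on day 26 against 1.2 and 2.42 TPM on day 12 (log2 change 1.12, SE 0.37, adjusted p = 0.0697, limma). It passed after quantile normalization. Wnt2 and Wnt4 stayed at or below 4.37 TPM and 1.59 TPM. On day 26 the order of mean levels was Wnt5a, Wnt9a, Wnt5b, Wnt10a, Wnt16, Wnt6, Wnt11, Wnt4, Wnt2, Wnt2b, Wnt10b and Wnt3. Neighbours in this order overlapped except Wnt5a above Wnt9a, Wnt10a above Wnt16, Wnt11 above Wnt4, and Wnt2b above Wnt10b. Wnt16 was the eighth ligand on day 12 and the fifth on day 26, and Wnt2b the sixth on day 12 and the tenth on day 26.

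The genes of ligand secretion showed no difference that passed. Wls, the carrier of Wnt proteins, had 160.32 and 197.83 TPM at day 12, 182.07 and 201.42 TPM at day 15, 141.47 and 142.82 TPM at day 21, and 165.6 and 147.59 TPM at day 26. It was higher than every ligand gene in every library. Porcn ranged from 13.38 to 24.36 TPM, with both ends in later libraries (20.38 and 17.77 TPM at day 12, 18.44 and 21.22 TPM at day 15, 24.36 and 18.29 TPM at day 21, 20.53 and 13.38 TPM at day 26).

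**Figure D2:**
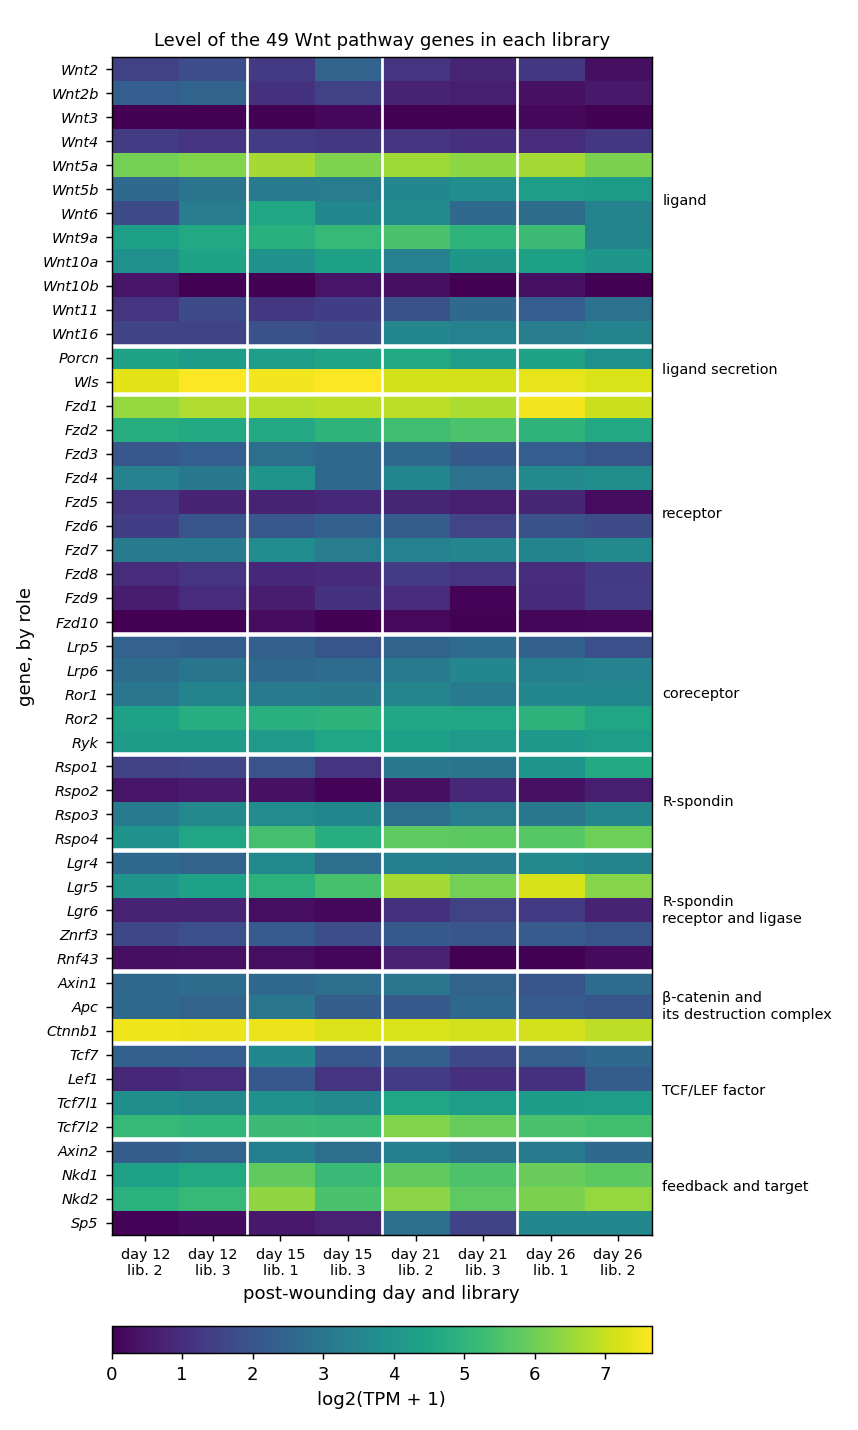
Level of all 49 Wnt pathway genes (rows, by role) in each of the 8 libraries (columns, by post-wounding day), coloured by log2(TPM + 1). Wls, Ctnnb1, Fzd1 and Wnt5a are bright in every library, and Lgr5, Rspo1, Rspo4 and Sp5 grow brighter from day 12 to day 26.

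Fzd1 was the leading Frizzled gene and the receptor gene that rose. Fzd1 (ENSMUSG00000044674.5, chromosome 5, 4753839 to 4758035) had 85.9 and 105.59 TPM at day 12, 112.24 and 119.38 TPM at day 15, 118.49 and 103.78 TPM at day 21, and 184.81 and 131.6 TPM at day 26. Both libraries of day 26 were above all others, library 1 most of all. From day 12 to day 26 the log2 change was 0.71 (SE 0.19, adjusted p = 0.0341, limma). It lost its call under 9 of 18 alternatives, among them the fits without library 1 of day 26 (log2 change 0.46, adjusted p = 0.159) and without library 2 or 3 of day 12 (adjusted p = 0.229 and 0.0597). Fzd1 held 72.8% of the summed Frizzled TPM on day 26 and 65.5% on day 12.

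Fzd2, the second Frizzled gene, was highest on day 21. It had 26.52 and 24.15 TPM at day 12, 23.76 and 30.77 TPM at day 15, 38.61 and 43.81 TPM at day 21, and 30.8 and 23.74 TPM at day 26. Both libraries of day 21 were above all others, but no step passed in limma. Fzd4 and Fzd7 lay between 4.94 and 14.53 TPM, Fzd3 and Fzd6 between 1.67 and 5.88 TPM, and Fzd8 and Fzd9 at or below 1.56 TPM, with none passing. The first 6 Frizzled genes stood in the same order on days 12 and 26: Fzd1, Fzd2, Fzd4, Fzd7, Fzd3 and Fzd6. On day 26 only Fzd4 and Fzd7, and Fzd9 and Fzd8, overlapped as neighbours in the order.

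None of the 5 coreceptor genes passed between day 26 and day 12, and their unadjusted p values were all above 0.05. Ror2, a receptor of Wnt5a, had 20.09 and 26.14 TPM at day 12, 27.83 and 30.24 TPM at day 15, 23.15 and 21.96 TPM at day 21, and 29.88 and 21.99 TPM at day 26. Ryk, a receptor without active kinase, had 17.82 and 17.87 TPM at day 12, 16.61 and 21.86 TPM at day 15, 19.16 and 16.33 TPM at day 21, and 15.81 and 18.48 TPM at day 26. Ryk overlapped on all days, whereas both libraries of day 15 had more Ror2 than those of days 12 and 21, with no step passing. The coreceptors of the β-catenin branch were lower: Lrp6 ran from 5.03 to 10.68 TPM and Lrp5 from 2.66 to 5.42 TPM, with Ror1 between 6.98 and 10.68 TPM. Lrp6 was at 7.85 TPM or more in all libraries of days 21 and 26 and at 6.91 TPM or less in all earlier ones, without passing (log2 change 0.50 between day 26 and day 12, adjusted p = 0.185, limma).

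Of the 4 R-spondin genes 2 rose between day 26 and day 12. The summed level of the role was 24.17 and 35.78 TPM at day 12, 56.62 and 38.31 TPM at day 15, 66.89 and 68.2 TPM at day 21, and 72.45 and 96.85 TPM at day 26. Rspo1 and Rspo4 rose, Rspo3 did not pass and Rspo2 was too low to test.

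Rspo1 (ENSMUSG00000028871.7, chromosome 4, 124986430 to 125009099) had 1.77 and 2.09 TPM at day 12, 2.89 and 1.27 TPM at day 15, 7.51 and 6.89 TPM at day 21, and 15.32 and 24.78 TPM at day 26. The libraries of days 12 and 15 overlapped, those of day 21 lay above them and those of day 26 highest. The log2 change between day 26 and day 12 was 2.81 (SE 0.33, adjusted p = 0.00118, limma), a 10.4-fold ratio of the mean TPM. Rspo1 kept its call under all 18 alternatives.

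Rspo4 (ENSMUSG00000032852.3, chromosome 2, 151842927 to 151874668), a gene known for its role in nail formation, was the most abundant R-spondin gene on every day. It had 13.93 and 22.08 TPM at day 12, 41.61 and 26.62 TPM at day 15, 53.25 and 51.99 TPM at day 21, and 49.47 and 61.37 TPM at day 26. Both libraries of day 15 were above those of day 12, although that step did not pass, and those of days 21 and 26 overlapped. Between day 26 and day 12 its log2 change was 1.60 (SE 0.26, adjusted p = 0.005, limma), and the call stood under all 18 alternatives. Rspo3, which had been the second R-spondin gene on day 12, ranged from 5.88 to 11.84 TPM, both libraries of day 15 lying above those of days 21 and 26, and days 26 and 12 overlapping (log2 change -0.12 between day 26 and day 12, adjusted p = 0.791, limma; 0.13 after quantile normalization).

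Lgr5 (ENSMUSG00000020140.11, chromosome 10, 115450311 to 115587780), a receptor of R-spondins and a target of β-catenin known as a marker of hair follicle and gut stem cells, rose. It had 14.89 and 19.95 TPM at day 12, 29.36 and 42.59 TPM at day 15, 98.87 and 65.23 TPM at day 21, and 146.14 and 76.13 TPM at day 26. Days 12, 15 and 21 did not overlap with each other, and library 2 of day 26 lay between the libraries of day 21. From day 12 to day 26 the log2 change was 2.55 (SE 0.33, adjusted p = 0.00187, limma), a 6.38-fold ratio of the mean TPM, and it stood under all 18 alternatives. Lgr5 and the summed keratinocyte markers were both higher on each later day by their means. Within day 26, library 1 had more Lgr5 than library 2 but a smaller keratinocyte marker sum, 437.3 against 798.2 TPM. Of the 15 keratinocyte markers, only Krt5 (68.53 against 64.49 TPM), Krt15 (53.06 against 35.23 TPM) and Trp63 (5.46 against 3.69 TPM) were higher in library 1. All the others were lower in it, among them Krt14 (123.55 against 253.63 TPM) and Krt17 (63.92 against 178.41 TPM). The part of keratinocytes in the Lgr5 change was not tested.

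Lgr4, the broadly expressed relative of Lgr5, lay near the threshold: it did not pass as reported here but passed in 10 of 18 alternatives (adjusted p between 0.0141 and 0.19, limma). Lgr4 had 5.09 and 4.41 TPM at day 12, 11.54 and 5.79 TPM at day 15, 8.86 and 8.63 TPM at day 21, and 11.3 and 9.79 TPM at day 26 (log2 change 1.01 between day 26 and day 12, SE 0.30, adjusted p = 0.0503, limma). No library of day 12 reached any later one. Lgr6 stayed at or below 1.81 TPM. The ligase genes, whose products R-spondins remove, did not pass or were not tested: Znrf3, itself a target of the pathway, had 2.19 and 2.63 TPM at day 12, 3.61 and 2.54 TPM at day 15, 3.48 and 3.14 TPM at day 21, and 3.57 and 3 TPM at day 26, and Rnf43 was at most 0.62 TPM. Of the summed TPM of these 5 genes, Lgr5 held 88.1% on day 26 and 68.2% on day 12.

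**Figure D3:**
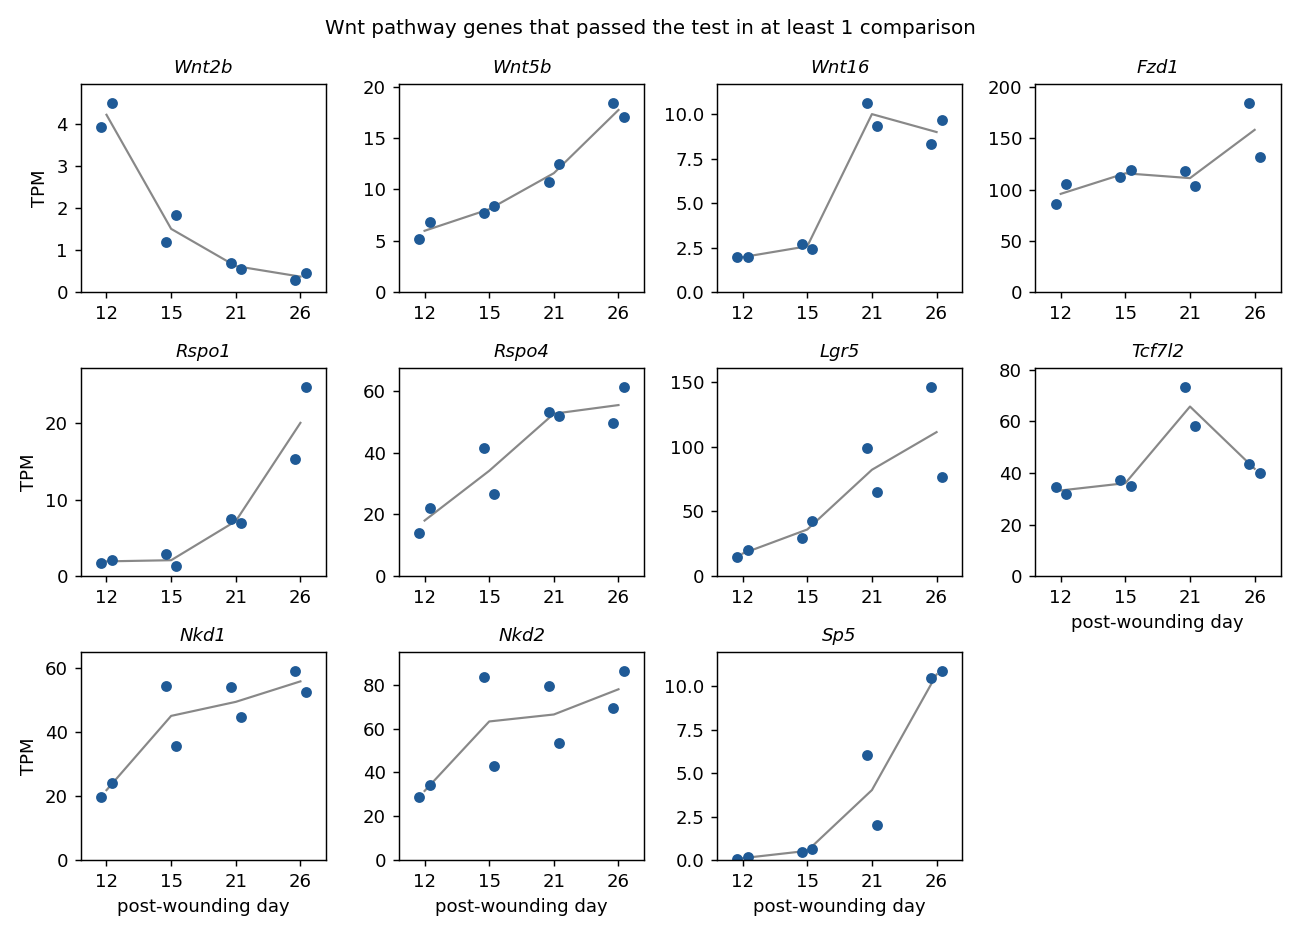
Level in TPM (y axis, from 0) of the 11 Wnt pathway genes that passed in at least 1 comparison, by post-wounding day (x axis). Points are the 2 libraries of a day and lines join the day means; Wnt2b falls from day 12 on, Wnt16 and Tcf7l2 step up at day 21, and Rspo1 and Sp5 are highest on day 26.

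β-catenin and its destruction complex did not pass between any of the days compared. Ctnnb1 had 175.21 and 170.96 TPM at day 12, 172.54 and 153.3 TPM at day 15, 149.79 and 138.86 TPM at day 21, and 139.74 and 117.82 TPM at day 26. Both libraries of day 26 lay below both of day 12 (log2 change -0.43, SE 0.14, adjusted p = 0.0682, limma), or -0.23 once the all-gene median is taken off. Its exons overlap Ulk4 on the other strand and the microRNA gene Mir7090 on the same strand. Axin1 and Apc, scaffolds of the complex, lay at 3.01 to 7.12 TPM (Axin1) and 3.18 to 7.03 TPM (Apc).

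Of the TCF/LEF factors, Tcf7l2 was the most abundant and peaked on day 21. Tcf7l2 (ENSMUSG00000024985.14, chromosome 19, 55741820 to 55933654) had 34.39 and 32 TPM at day 12, 37.08 and 34.96 TPM at day 15, 73.41 and 58.03 TPM at day 21, and 43.35 and 39.85 TPM at day 26. Both libraries of day 21 stood above all others. It rose between day 21 and day 15 (log2 change 0.84, SE 0.16, adjusted p = 0.0476, limma), passed the F test over the days (adjusted p = 0.0192, limma) and did not pass between day 26 and day 21. The rise lost its call under 12 of 18 alternatives, with adjusted p values up to 0.275, among them leaving out any 1 library of days 12, 15 or 21 (adjusted p between 0.092 and 0.232).

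Tcf7l1, known mainly as a repressor among these factors, had 13.19 and 11.21 TPM at day 12, 13.78 and 11.29 TPM at day 15, 22.3 and 18.17 TPM at day 21, and 17.54 and 18.79 TPM at day 26. All libraries of days 21 and 26 were above all libraries of days 12 and 15. The log2 change between day 26 and day 12 was 0.54 (SE 0.20, adjusted p = 0.102, limma), and it passed after quantile normalization and after upper quartile scaling. Lef1 and Tcf7, the members of the family best known as activators, were lower, with Lef1 between 0.86 and 3.75 TPM and Tcf7 between 2.25 and 10.86 TPM. Each was high in single libraries: Tcf7 in library 1 of day 15, and Lef1 in that library (3.24 TPM) and library 2 of day 26 (3.75 TPM).

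The feedback and target genes rose in 3 of 4 cases. Sp5 (ENSMUSG00000075304.2, chromosome 2, 70474923 to 70477729), a transcription factor gene known as a direct target of β-catenin, showed the largest log2 change of the members. It had 0.06 and 0.18 TPM at day 12, 0.45 and 0.63 TPM at day 15, 6.07 and 2 TPM at day 21, and 10.47 and 10.89 TPM at day 26. Every day lay above the one before it without overlap. Its log2 change between day 26 and day 12 was 3.38 (SE 0.39, adjusted p = 0.00109, limma). It kept its call under all 17 alternatives in which it was tested, with log2 changes from 3.31 to 5.67 (the highest at a pseudocount of 0.1 TPM).

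Nkd1 (ENSMUSG00000031661.7, chromosome 8, 88521354 to 88594884) and Nkd2 (ENSMUSG00000021567.10, chromosome 13, 73818534 to 73847631) encode Naked cuticle proteins, which bind Dishevelled and dampen the signal. Nkd1 had 19.79 and 24.07 TPM at day 12, 54.65 and 35.67 TPM at day 15, 54.16 and 44.94 TPM at day 21, and 59.26 and 52.65 TPM at day 26. Nkd2 had 28.81 and 34.31 TPM at day 12, 83.6 and 42.83 TPM at day 15, 79.46 and 53.34 TPM at day 21, and 69.48 and 86.29 TPM at day 26. For both genes every library after day 12 was above those of day 12, and the later days overlapped.

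Between day 26 and day 12 Nkd1 rose by 1.32 (SE 0.22, adjusted p = 0.0053, limma) and Nkd2 by 1.27 (SE 0.31, adjusted p = 0.0241, limma) on the log2 scale. Nkd1 lost its call without library 2 of day 12 (adjusted p = 0.054). Nkd2 lost its call under 5 of 18 alternatives, among them the fits without library 2 of day 12 (adjusted p = 0.148), without library 3 of day 12 (0.0664) and without library 2 of day 26 (0.0949). Axin2, the target gene most used as a readout of β-catenin activity, did not pass: it had 3.77 and 4.49 TPM at day 12, 8.85 and 5.87 TPM at day 15, 8.92 and 6.93 TPM at day 21, and 7.9 and 5.16 TPM at day 26 (log2 change 0.53 between day 26 and day 12, SE 0.29, adjusted p = 0.247, limma). Both libraries of each later day were above those of day 12.

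**Figure D4:**
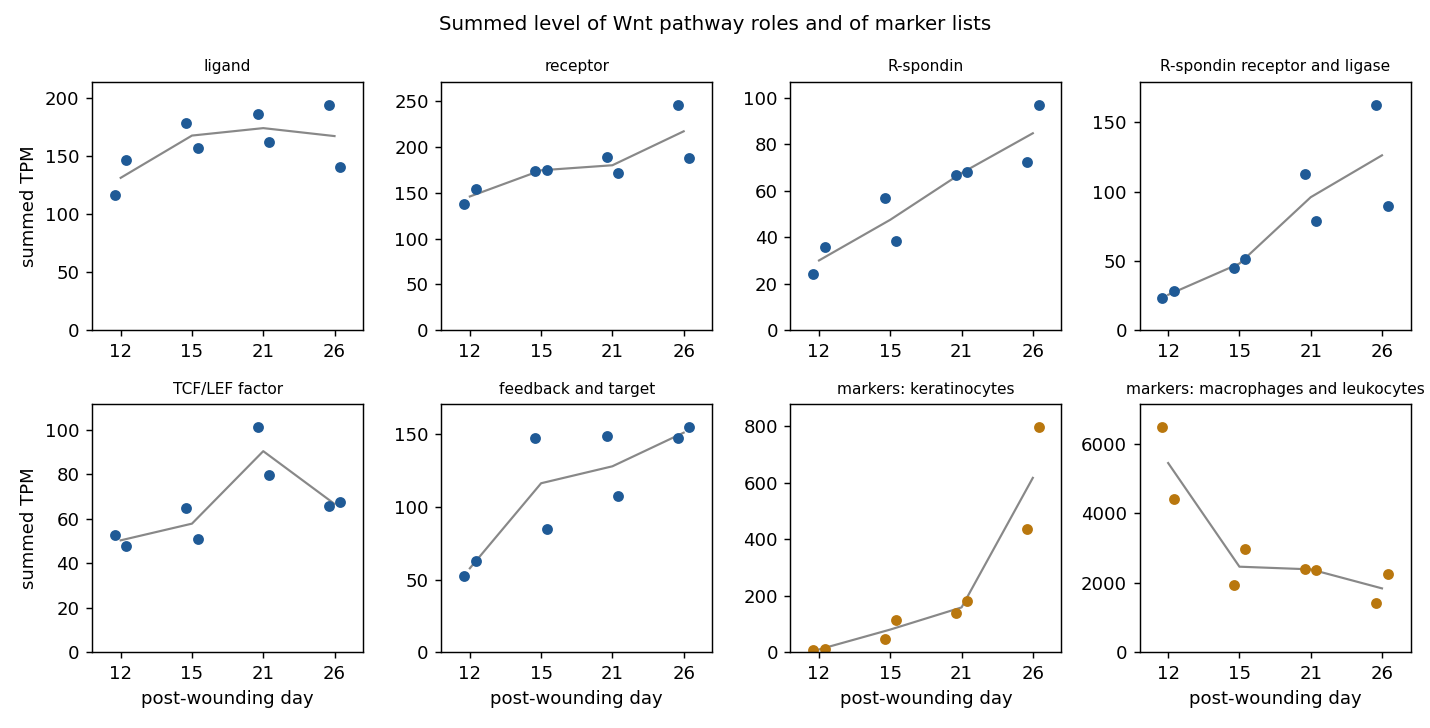
Summed TPM (y axes, from 0) of 6 roles of Wnt pathway genes (blue) and of the keratinocyte and the macrophage and leukocyte marker lists (orange) by post-wounding day. Points are the 2 libraries of a day and lines join the means; R-spondins reach 72.45 and 96.85 TPM on day 26, against 24.17 and 35.78 TPM on day 12, and TCF/LEF factors are highest on day 21.

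The single steps between days held few calls among the members. Between day 15 and day 12 no member passed in limma, against 0.159% of all tested genes (0.0863% higher and 0.0730% lower), and 8 of 43 members had an unadjusted p under 0.05, against 8.74% of all; no alternative gave a call. The libraries of day 15 were both above those of day 12 for 18 members, against 19.0% of all tested genes, and both below for 4, against 17.8%. Between day 21 and day 15, 2 members rose, Wnt16 and Tcf7l2, and none fell, against 1.40% of all tested genes (0.491% higher and 0.910% lower). The libraries of day 21 were both above those of day 15 for 14 members, against 18.0% of all, and both below for 7, against 30.3%. Between day 26 and day 21 no member passed in limma, against 0.319% of all tested genes (0.0996% higher and 0.219% lower), and 6 members had an unadjusted p under 0.05, against 18.7% of all. Without library 1 of day 26, Wnt9a was called lower. The libraries of day 26 were both above those of day 21 for 8 members, against 16.9% of all, and both below for 4, against 31.8%. Over the 4 days together, 9 of 43 members passed the F test, against 12.4% of all tested genes: Wnt2b, Wnt5b, Wnt16, Rspo1, Rspo4, Lgr5, Tcf7l2, Nkd1 and Sp5.

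Other genes of the pathway were followed in lists, for which the same background of 5.26% higher and 11.8% lower between day 26 and day 12 applies. In the cytoplasmic machinery around the destruction complex and Dishevelled, 0 of 22 tested genes rose and 1 fell, Dact1, a Dishevelled-binding regulator, with 8.81 and 10.55 TPM on day 26 against 22.64 and 28.3 TPM on day 12 (adjusted p = 0.00723, limma). Of 23 nuclear cofactor genes 1 rose and 1 fell: the Groucho-related Tle6 had 32.65 and 33.56 TPM on day 26 against 13.9 and 14.45 TPM on day 12, and the chromatin remodeller gene Smarca4 had 19.68 and 20.68 TPM on day 26 against 39.83 and 38.16 TPM on day 12. Of 18 tested genes of planar cell polarity, 1 rose (Fuz) and 1 fell (Fat4).

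Genes known as Wnt targets in other tissues split. Of 17 tested, 5 rose and 3 fell. Tnfrsf19, a receptor gene of hair follicles, had 71.52 and 61.28 TPM on day 26 against 11.9 and 18.57 TPM on day 12 (log2 change 2.08, adjusted p = 0.00105, limma), and it was also called higher on day 15 than on day 12 (log2 change 1.66, adjusted p = 0.0484). Snai2, which encodes a factor of mesenchymal transition, fell (log2 change -1.03, adjusted p = 0.00318, limma), and Id2 rose (log2 change 0.78, adjusted p = 0.00568, limma). Many inputs besides Wnt are known for these genes.

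Surface proteoglycans and other coreceptors held 3 risers and 2 fallers among 12 tested. The glypican gene Gpc3 rose to 454.99 and 392.21 TPM on day 26, against 128.19 and 182.71 TPM on day 12 (log2 change 1.46, adjusted p = 0.00153, limma), while Gpc2 fell (log2 change -1.87, adjusted p = 0.00545, limma). Reck, which helps Wnt7 ligands in endothelium, rose (log2 change 0.96, adjusted p = 0.0149, limma). Of 16 tested antagonist genes 5 rose and 1 fell, with Dkk2, Wif1 and the fallen Draxin lowest in adjusted p (0.000121, 0.00126 and 0.00758, limma). The Wnt ligand genes outside the 49, namely Wnt1, Wnt3a, Wnt7a, Wnt7b, Wnt8a, Wnt8b and Wnt9b, were all too low to be tested.

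In the authors' deposited table of 5 gene clusters, 10 of the 49 members were listed, 20.4% of them, among 4120 genes, which is 9.5% of all table entries. Of the genes tested here, the authors' deposited table listed 23.3% of members and 18.5% of all. Cluster C4 held 7: Rspo4, Wnt16, Wnt5b, Tcf7l1, Sp5, Lgr5 and Nkd1, with authors' folds of day 26 over day 12 between 1.5 and 10.4 in the authors' deposited table. Rspo1 was in C5 (authors' deposited table, fold 7.2), Wnt2b in C1 (authors' deposited table, fold -3.8, a fall) and Ctnnb1 in C2 (authors' deposited table, fold of day 26 over day 21 of -1.3). Folds in the authors' deposited table equalled, to 1 decimal, the ratios of mean TPM plus 1 in each case but Ctnnb1. For low genes these folds are therefore smaller than ratios of TPM. For Ctnnb1 that ratio was -1.1 in the same signed form for day 26 over day 21, the days named in the column header. Mean Ctnnb1 TPM on day 12 was 1.34 times that on day 26. Fzd1, Nkd2 and Tcf7l2, which passed here, were not listed in the authors' deposited table of clusters, and Tcf7l1 and Ctnnb1, listed there, did not pass here.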

How the data were processed

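RNA from sorted tdTomato-high wound cells was measured in 8 libraries, 2 for each of 4 days. The deposited signal per gene and library was never under 1 and, minus 1, summed to 1000000 in each column within rounding, so it was taken to be TPM plus 1, and 1 was taken off. RSEM 1.12.2 and the mm10 build are named in the submitters' processing notes; no aligner or annotation is given in the sources used here. Depth is unknown. Columns were assigned to days by name, since their numbers are not the replicate numbers of the labels. Per the file headers, the authors' deposited cluster tables hold a p-value of unstated test and a signed fold score; their 40 value columns were not used.

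Values were taken to log2(TPM + 1). Genes reaching 1 TPM in 2 or more libraries (15062) were fitted with limma 3.58.1 (trend method, R 4.3.3), 1 coefficient per day, all 8 libraries together (4 residual and 4.76 prior degrees of freedom), 2-sided contrasts and an F test. Scripts were tested on simulated data. No pair of libraries was identical. Of all symbols, 60 were listed more than once, none of them a member. The members and lists were chosen with earlier results of these data known. Named with every value were members that passed or averaged at least 10 TPM, and up to 3 genes per further list by adjusted p; Lef1, Lgr4, Axin2, Znrf3 and Wnt11 were added after their values were seen. Alternatives changed the pseudocount, filter, scaling, limma settings, days fitted and libraries.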

Additional observations from a re-analysis of the deposited data

How the results depend on the processing

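Between day 26 and day 12, 8 to 13 members passed under the alternatives with 2 libraries in each day fitted, against 10 as reported. Over all tested genes 1667 to 2557 were called in these, against 2562 as reported. No member that passed changed direction under any alternative. Wnt2b, Wnt5b, Wnt16, Rspo1, Rspo4, Lgr5 and Sp5 passed in each alternative in which they were tested; Sp5 and Wnt2b were not tested at a mean of at least 5 TPM. Quantile normalization gave a median log2 change of all tested genes of -0.01, against -0.20 as deposited, and a share of higher genes among all called of 48.9% (45.4% after upper quartile scaling), against 30.9% as deposited, and added Lgr4, Tcf7l1 and Wnt11. The signs of Wnt4, Wnt9a, Lrp5, Ryk, Fzd3 and Rspo3, which did not pass, turned under it. Between day 21 and day 15 the count of 2 became 1 at a pseudocount of 0.1 or 0.5 TPM. It was also 1 without the trend and with only those days fitted, and 0 without a filter. Over all tested genes 134, 188, 51, 203 and 44 were called in these fits, in the same order, against 211 as reported. Wnt16 and Tcf7l2 also lost their calls in this step without a library of day 12, 15 or 21, or without those with the most Xist. Fewer of all tested genes than reported were called in those fits too. Leaving out single libraries gave 0 to 1 between day 26 and day 21 (Wnt9a, without library 1 of day 26), 7 to 11 between day 26 and day 12, and 4 to 11 in the F test, the lowest without library 2 of day 12; the cause was not tested. Between day 26 and day 12 and in the F test, fewer of all tested genes than reported were called in each of these fits too. A lone library was assumed to vary like the other days. The value columns carry numbers other than the replicate numbers of the labels, and whether they mark a pairing is unknown. Libraries with the same column number did not all deviate together (correlations of deviations from the day means across genes between -0.23 and 0.14), and the days compared share at most 1 number. A replicate block on these numbers, chosen after seeing the data and counted apart from the 18 alternatives, left 2 residual degrees of freedom. It gave 8 members between day 26 and day 12 (without Fzd1 and Nkd2), 8 in the F test, and 0 in each other step. Over all tested genes it called 1474 between day 26 and day 12, against 2562 as reported, and 1087 in the F test, against 1866. Between day 21 and day 15 it called 83, against 211. With 2 libraries a day and no depth in TPM, low genes such as Sp5 on day 12 have no counting error to set beside them.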

Other observations

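Library 1 of day 15, which had the most Xist of all libraries, stood above library 3 of that day in several Wnt genes. It also had larger marker sums of Schwann cells and melanocytes (839.1 against 314.4 TPM) and of pericytes and smooth muscle (2200 against 805.1 TPM). It had 54.65 against 35.67 TPM of Nkd1, 83.6 against 42.83 TPM of Nkd2, 8.85 against 5.87 TPM of Axin2, 10.86 against 3.25 TPM of Tcf7, 3.24 against 1.28 TPM of Lef1 and 22.54 against 10.85 TPM of Wnt6. The reverse held for Lgr5, at 29.36 against 42.59 TPM. Of the 43 tested members 24 (55.8%) were higher in library 1, against 71.8% of all tested genes, and 11 (25.6%) were higher by over 0.5 on the log2(TPM + 1) scale, against 19.7% of all tested genes. These are values of 2 libraries, chosen after they were seen, with no test.

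The leading gene of a role kept its place on all 4 days, with Wnt5a, Wls, Fzd1, Ror2, Rspo4, Lgr5, Ctnnb1, Tcf7l2 and Nkd2 first by mean TPM on each. On day 12 the mean of Lgr5 (17.42 TPM) lay below those of the ligand genes Wnt5a and Wnt9a (21.56 TPM) only. By day 15 its mean (35.98 TPM) stood above that of Wnt9a (31.3 TPM), with overlapping libraries. On day 26 its mean (111.1 TPM) stood above that of Wnt5a (84.02 TPM), again with overlapping libraries.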
